A study of Homo sapiens with 8 samples.

Results

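The region around TEX14 and RAD51C on chromosome 17 was examined for p53 chromatin immunoprecipitation with sequencing (ChIP-seq) peaks in 293T cells, which are human embryonic kidney cells that express the large T antigen of simian virus. All peaks that overlapped the hg19 window chr17:56624000-56822000 by at least 1 bp in the 4 deposited peak lists were taken, which gave 20 of 97582 peaks and 11 of 63890 merged sites. The deposited tables of peak pairs matched between replicates held 6 pairs here of 15028 in all. Cells had received doxorubicin at 0.5 µg/ml (Dox) or, as vehicle, 20 µl of phosphate-buffered saline (PBS). Treatment lasted 24 h, and there were 2 ChIP libraries per condition, each precipitated with the same p53 antibody clone. In both conditions, passage 3 gave replicate 1 and passage 5 gave replicate 2. Nothing in the labels says that the libraries came from separate cultures other than by passage, so spreads between them may be partly technical. The region was chosen by the fold enrichment and rank of 2 strong sites in the 4 lists, called far and middle here, so those values are a description and support nothing.

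The p53 protein binds DNA as a tetramer at response elements made of a pair of decamers and activates genes for cell cycle arrest, repair and apoptosis. Doxorubicin poisons topoisomerase II, and the DNA breaks that follow stabilise p53. In 293T cells the large T antigen binds p53. RAD51C encodes a protein that acts in homologous recombination repair of DNA breaks, and TEX14 encodes a protein of the intercellular bridges that join male germ cells, where mouse work has shown it to be needed for fertility. The pair are neighbours that are transcribed away from each other.

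On hg19, TEX14 was placed at about chr17:56634039-56769416 and the RAD51C start near position 56769963, so 0.547 kb separated them. In the RefSeq annotation of the later build GRCh38.p14, 8 genes lie inside TEX14. Of these, 3 are pseudogenes named for the U1 small nuclear RNA, the RNA that recognises the start of introns in splicing, among them RNU1-108P and RNU1-52P, and LOC124904122 is listed as a small nuclear RNA. The others are the protein-coding IGBP1C, the long noncoding RNAs LOC107985048 and LOC105371842 and the pseudogene LOC124904154. The next protein-coding genes are SEPTIN4 beyond TEX14 and PPM1E beyond RAD51C. As the builds differ, no peak was assigned to any of these genes, nor to an exon or intron of TEX14.

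The start of RAD51C and that of IGBP1C, whose annotated end in RefSeq is shared with TEX14, face each other across the gap between the genes. Their promoters are shown because the weak peaks nearest to RAD51C lay in or beside this gap. The sequences are RefSeq's on GRCh38.p14, from 250 bases before to 50 bases after the start, and the capitals mark the bases from the start onwards. RAD51C has 2 such windows in the table and the first is shown, chr17:58692323-58692622 on the plus strand, with IGBP1C at chr17:58691996-58692295 on the minus strand.
RAD51C: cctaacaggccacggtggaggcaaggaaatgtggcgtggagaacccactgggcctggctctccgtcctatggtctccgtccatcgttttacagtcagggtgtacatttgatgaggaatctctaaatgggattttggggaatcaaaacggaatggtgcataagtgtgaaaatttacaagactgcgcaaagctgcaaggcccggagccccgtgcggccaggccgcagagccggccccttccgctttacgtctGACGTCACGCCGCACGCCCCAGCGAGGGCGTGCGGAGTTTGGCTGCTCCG
IGBP1C: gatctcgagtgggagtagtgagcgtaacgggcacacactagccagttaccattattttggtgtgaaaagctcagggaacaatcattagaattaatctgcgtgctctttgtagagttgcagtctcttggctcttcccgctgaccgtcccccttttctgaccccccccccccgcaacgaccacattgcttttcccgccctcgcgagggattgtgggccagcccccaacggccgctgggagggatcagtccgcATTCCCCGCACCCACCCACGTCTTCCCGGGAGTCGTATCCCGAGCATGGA
The p53 decamer consensus, searched on both strands (it is its own reverse complement), had no exact match in either window shown. The closest stretch differed from it at 2 bases in RAD51C and at 1 base in IGBP1C. Over 35116 promoter windows in the table, 6.63% held an exact decamer and 63.7% held one with at most 1 mismatch. No hg19 sequence was at hand, so the sequence under the peaks inside TEX14 was not searched.

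Of the 11 sites in the window, 3 held a peak in all 4 libraries, and the other 8 held a peak in 1 library each. Over all 63890 sites, 6.01% were found in all 4 libraries and 72.5% in 1 library. On chromosome 17 the share found in all 4 was 6.36%. None of the 11 sites was restricted to the Dox pair or to the PBS pair, classes that held 3.11% and 0.928% of all sites. The 3 shared sites lay inside TEX14 and are called here far, middle and near, by their distance from the RAD51C start. The far and middle sites are the strong sites for which the region was chosen, and the near site became a subject only after its values had been seen. The far site ran from 56708025 to 56709411, with summits on average 61.1 kb before the RAD51C start. The middle site ran from 56735201 to 56736900, 33.5 kb before it, and the near site from 56756205 to 56757299, 13.1 kb before it. The summits of the far and middle sites were thus 27.6 kb apart, and those of the middle and near sites 20.3 kb.

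**Figure D1:**
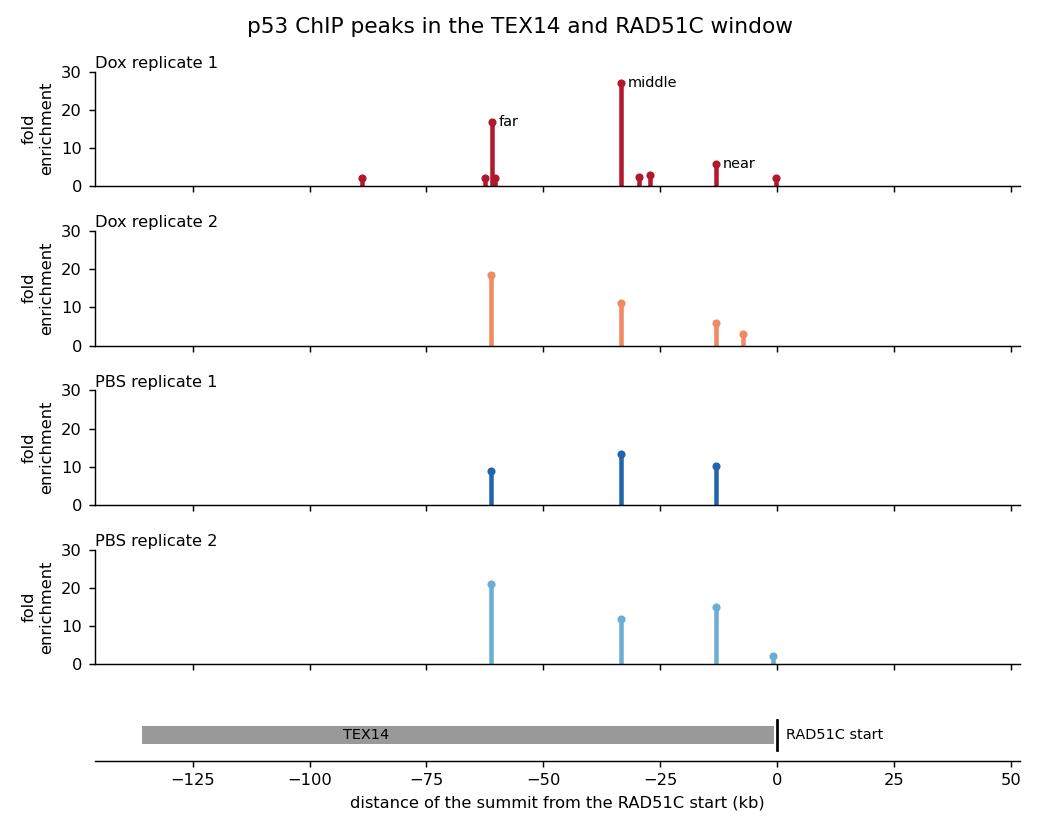
Fold enrichment of each peak (vertical axis, the authors' ratio within each list) against the distance of its summit from the RAD51C start in kb (horizontal axis), 1 panel per library, with TEX14 as a grey bar. The far, middle and near sites recur in all 4 panels, and no peak lies to the right of the RAD51C start.

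All 12 peaks at the 3 shared sites reached a −log10 q of at least 1.3, that is a q of about 0.05, which 3.66% and 4.84% of peaks did in Dox replicates 1 and 2 and 2.56% and 5.98% in PBS replicates 1 and 2. In the lists as a whole, 5.36% of the 3840 sites found in all 4 libraries did so in every library. The far and middle sites were chosen for strength in these lists, so passing this limit was set by the choice and supports nothing. The near site was taken up after its values had been seen. Fold enrichment is the authors' ratio of the summit to the caller's local background and is on a scale of its own in each list. At the far site it was 16.8-fold and 18.4-fold in Dox replicates 1 and 2, against 8.77-fold and 21.2-fold in PBS replicates 1 and 2. At the middle site it was 26.9-fold and 11.01-fold in Dox replicates 1 and 2, against 13.4-fold and 11.8-fold in PBS replicates 1 and 2. The middle site was the peak with the highest fold of the whole Dox replicate 1 list. At the near site it was 5.65-fold and 5.81-fold in Dox replicates 1 and 2, against 10.1-fold and 15.05-fold in PBS replicates 1 and 2, so that both Dox values lay below both PBS values, as they did at 9.24% of the 3840 sites found in all 4 libraries. With a separate scale in each list, nothing more was read from this.

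By fold, the far site ranked 11 and 6 in the lists of Dox replicates 1 and 2 and 33 and 7 in those of PBS replicates 1 and 2. The middle site ranked 1 and 30 in the Dox lists and 8 and 38 in the PBS lists. The near site ranked 509 and 204 in the Dox lists, which hold 46658 and 16642 peaks, and 23 and 20 in the PBS lists, which hold 11304 and 22978 peaks. Ordered by their lowest fold percentile over the 4 lists, the middle site was number 8, the far site number 15 and the near site number 76 of the 3840 shared sites. Directly above the far site stood a site on chromosome 15 from 80295475 to 80295937, with folds between 8.84 and 14.2, and directly below it a site on chromosome 17 from 8075582 to 8077153, with folds between 8.72 and 22.5.

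The matched pairs gave the near site the last place of the 3 in both conditions. The irreproducible discovery rate (IDR) is the expected share of irreproducible pairs among all pairs ranked as high or higher. In Dox it was 5.2e-07 for the far, 5.7e-07 for the middle and 5.3e-06 for the near site. In PBS it was 6.6e-06, 6.1e-06 and 8.1e-06 in the same order. All 6 pairs were below an IDR of 0.05, against 27.5% of all Dox pairs and 15% of all PBS pairs. For the far and middle sites, chosen for strength in the same libraries, this followed from the choice and is a description only. Ranked by IDR, the near site was pair 144 of 8784 in Dox and pair 9 of 6244 in PBS, while the far and middle sites stood between ranks 3 and 5 in both tables. The 2 tables come from separate fits, so their ranks are given side by side and were not compared.

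The summits of the 3 sites lay at nearly the same place in every library. Over the 4 libraries the summits of the far site spanned 44 bp, from 56708877 to 56708921, those of the middle site 28 bp, from 56736481 to 56736509, and those of the near site 38 bp, from 56756813 to 56756851. The median span over the 3840 shared sites was 209 bp (quartiles 92 and 449 bp), and 7.63% had a span of 38 bp or less. The peaks were broad, at 1105 to 1333 bp for the far, 1175 to 1631 bp for the middle and 779 to 1072 bp for the near site, against median peak lengths of 281 to 288 bp in the lists. Each peak was lopsided, with its summit on the side towards RAD51C: it lay at 58.5% to 67.9% of the length at the far site, 73.2% to 79.8% at the middle site and 55.6% to 71.5% at the near site. Among shared sites, 7.5% had the summit on the higher-coordinate side of the middle in every library. These shares were not matched for peak height or length.

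**Figure D2:**
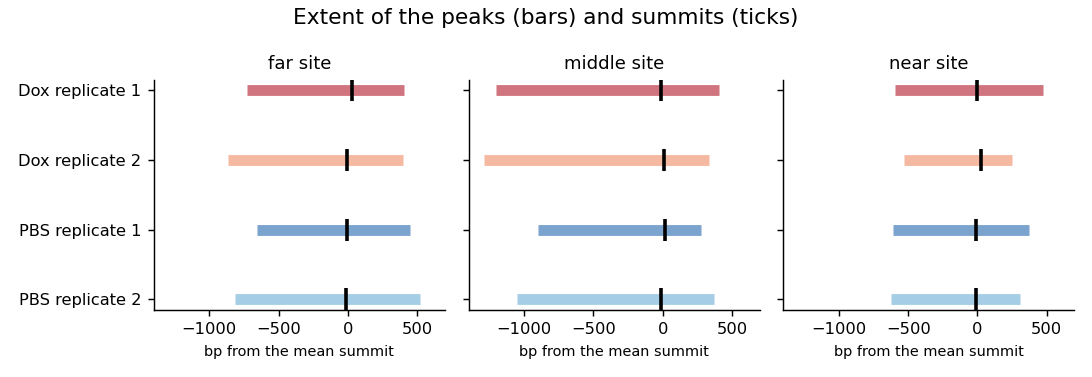
Extent of each peak (bars) and its summit (ticks) in bp from the mean summit of the site (horizontal axis), for each library (rows). The summits line up within 44 bp at each site, while the lower edge of the bars is less well aligned.

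By the caller's formula, fold divides the ChIP reads at the summit, scaled to the control, by a local background, with 1 added to both. The local background is taken from the control. Both parts can be recovered, because fold and p of a peak fit only 1 whole number of ChIP reads if the caller's formulas hold. These heights count reads after extension and were unique for all 12 peaks of the shared sites. Genome background was 3.03 and 3.07 reads in Dox replicates 1 and 2, and 2.73 and 2.65 reads in PBS replicates 1 and 2. The far site came to 218 and 179 reads in Dox replicates 1 and 2, against 183 and 173 reads in PBS replicates 1 and 2. The middle site came to 198 and 165 reads in Dox replicates 1 and 2, against 175 and 161 reads in PBS replicates 1 and 2. In both cases Dox replicate 1 was the tallest, and Dox replicate 2 lay between the PBS libraries. The near site came to 81 reads in Dox replicate 1 (95% Poisson interval 64.3 to 100.7, counting error only) and 69 reads in Dox replicate 2 (53.7 to 87.3), against 158 reads in PBS replicate 1 (134 to 185) and 152 reads in PBS replicate 2 (129 to 178). Both Dox libraries were thus below both PBS libraries at the near site, by more than the counting error and by more than the gap between the libraries of a condition.

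**Figure D3:**
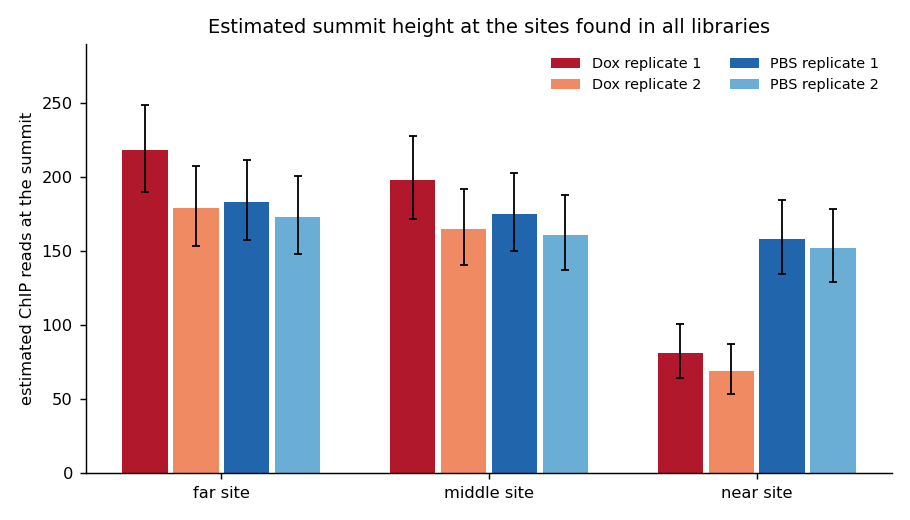
Estimated ChIP reads at the summit (vertical axis, linear from 0) at the far, middle and near site in each library, with 95% Poisson intervals for counting error only. The near site has 81 and 69 reads in the Dox libraries and 158 and 152 in the PBS libraries, while the far and middle sites lie between 161 and 218 in all 4.

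To compare conditions free of each list's scale, the sites were set against each other within a library. The height ratio of the near to the far site was 0.372 and 0.385 in Dox replicates 1 and 2, against 0.863 and 0.879 in PBS replicates 1 and 2. The height ratio of the near to the middle site was 0.409 and 0.418 in Dox replicates 1 and 2, against 0.903 and 0.944 in PBS replicates 1 and 2. On the log2 scale the near-to-far ratio averaged -1.40 ± 0.038 in Dox and -0.20 ± 0.018 in PBS (SD, n = 2 each), a difference of -1.20 (two-sided exact permutation p = 0.333, where 2 against 2 allow no p below 0.33). The near-to-middle ratio differed by -1.16 (exact permutation p = 0.333). Within number 1 (passage 3) and within number 2 (passage 5) the near-to-far difference was -1.22 and -1.19. The difference was many times larger than the spread between the 2 libraries of a condition, and the exact permutation test cannot pass 0.05 with 2 libraries against 2. Since the near site was taken up after its values had been seen, the difference and its p are a description and not support. A ratio alone shows that the sites changed unequally and not which of them changed. Over genome background, the near site stood at 26.8 and 22.5 in Dox replicates 1 and 2, against 57.8 and 57.4 in PBS replicates 1 and 2. The far site stood at 72.1 and 58.3 in Dox, against 66.9 and 65.4 in PBS. For the middle site the values were 65.5 and 53.7 in Dox, against 64.0 and 60.8 in PBS. On that scale Dox and PBS overlapped at the far and middle sites and not at the near site.

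The size of this gap was set beside all sites found in all 4 libraries whose heights could be resolved, 3570 of 3840. A site below the caller's threshold in any library is not in this set, so larger changes elsewhere could be missed. The near site was taken up after its values had been seen, so its place in the set is a description. For the height ratio to the far site, both Dox libraries lay below both PBS libraries in 22.2% of the other 3569 sites, and above both in 15.6%, so the direction alone was common. The higher Dox library lay 1.16 log2 units below the lower PBS library at the near site, a gap that 0.028% of sites reached, which is the near site itself. The widest gap of any other site was 0.98 log2 units with Dox lower and 0.75 with Dox higher. By the difference of the means, Dox minus PBS, the near site was matched in size elsewhere: 0.056% of sites, 2 in number with the near site, were lower in Dox by as much or more, and 0.056%, also 2, were higher in Dox by as much. The other sites ran from -1.22 to 1.21 on that measure. The near site also had the widest gap relative to the middle site, 1.11 against at most 0.95 elsewhere, and relative to each library's genome background, 1.101 against at most 0.94. The shares with Dox below PBS on these scales were 18.6% and 20.8%. A set of 225 sites had at least 69 reads in some library, a limit equal to the near site's own height in Dox replicate 2. Of this set, 37.3% had both Dox ratios to the far site below both PBS ratios and 22.2% above. The near site was again the 1 with the widest gap, 0.444% of the 225. The median site differed by -0.04 log2 units between Dox and PBS on this scale, and the median of the 225 by -0.08. By height among shared sites, the near site ranked 156 and 130 in Dox replicates 1 and 2, against 25 and 20 in PBS replicates 1 and 2, and 19.6% of sites ranked lower in both Dox libraries than in both PBS libraries.

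**Figure D4:**
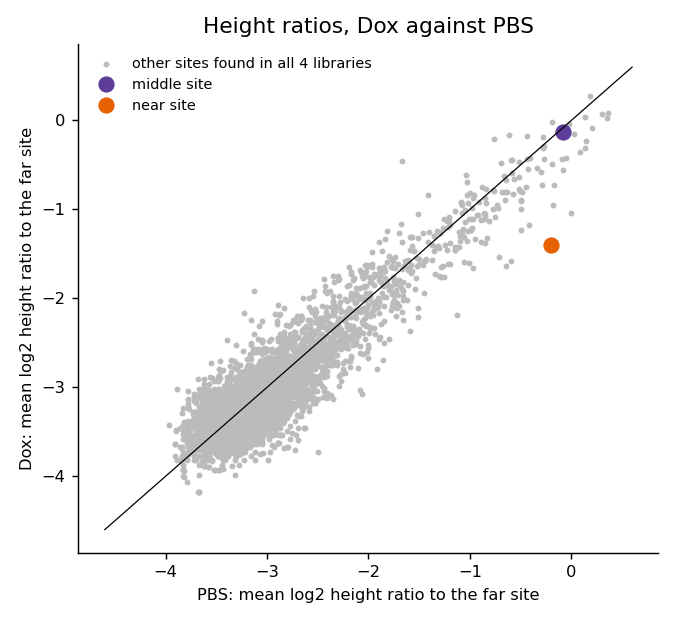
Mean log2 height ratio to the far site in Dox (vertical axis) against PBS (horizontal axis) for the 3569 other sites found in all 4 libraries, with the line of equal ratios. The middle site lies beside the line, and the near site lies off it, with a Dox minus PBS difference of -1.20, while the other sites run from -1.22 to 1.21.

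The middle and far sites kept a nearly constant height ratio, 0.908 and 0.922 in Dox replicates 1 and 2, against 0.956 and 0.931 in PBS replicates 1 and 2. Both Dox ratios lay below both PBS ratios, as at 22.2% of the 3569 sites set against the far site. The log2 difference, Dox minus PBS, was small at -0.044. The fold ratio of the middle to the far site, in contrast, was 1.602 and 0.599 in Dox replicates 1 and 2, against 1.52 and 0.559 in PBS replicates 1 and 2. It was above 1 in both libraries of number 1 and below 1 in both of number 2, and Dox and PBS overlapped. The difference of log2 ratios, Dox minus PBS, was 0.07 within number 1 and 0.10 within number 2, given as a description since these folds chose the region. The local background at the middle site was estimated at 1.0 and 4.0 control reads in Dox replicates 1 and 2, against 1.51 and 4.0 control reads in PBS replicates 1 and 2. At the far site it was 2.52 and 2.24 control reads in Dox replicates 1 and 2, against 3.0 and 2.0 in PBS replicates 1 and 2. These backgrounds were solved from the same fold and p values, and their part in the fold ratio was not tested. Of the 12 local backgrounds at the shared sites, 7 were whole numbers of control reads within 0.001. A fold ratio to the far site that was higher in both libraries of number 1 than in both of number 2 was found at 67% of shared sites, a share that also holds the far site's own folds. At the near site the local background was 3.0 and 3.06 control reads in Dox replicates 1 and 2, against 2.0 and 2.72 in PBS replicates 1 and 2, and the part of the control in its fold values is absent from the heights.

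**Figure D5:**
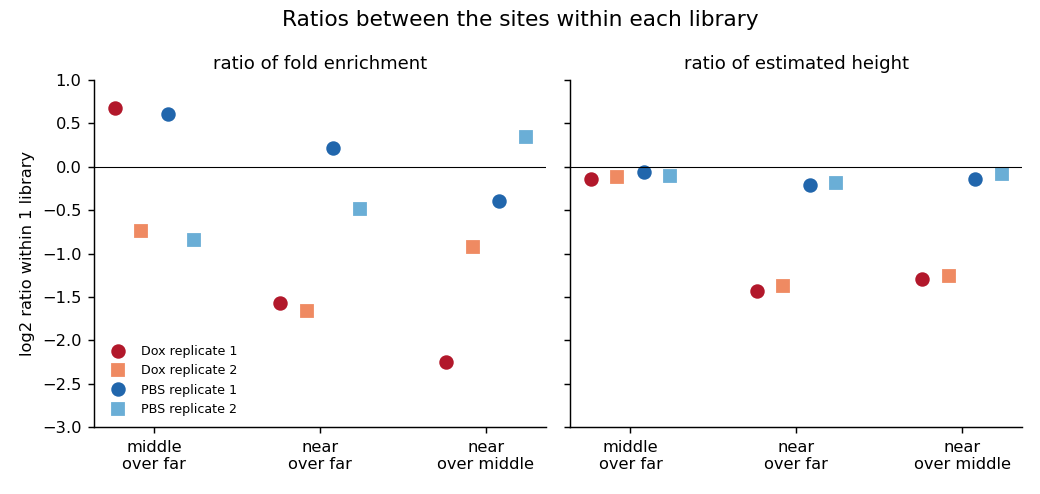
Log2 ratio between sites within each library (vertical axis) by fold enrichment (left) and by estimated height (right), with circles for replicate number 1 and squares for number 2. By height, the middle-to-far ratios of the 4 libraries lie between -0.14 and -0.06, and both near-site ratios lie below -1.2 in the Dox libraries and above -0.3 in the PBS libraries.

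The other 8 peaks were weak, with folds between 2.03 and 3.03 and a −log10 q of 0. Of these, 6 were in Dox replicate 1, the longest list, and PBS replicate 1 had 0. The lists of Dox replicate 2 and PBS replicate 2 held 1 each. Sites found only in Dox replicate 1 made up 48.5% of all sites. The strongest, in Dox replicate 1 from 56742689 to 56742921, had 3.03-fold enrichment and an estimated 23 reads. A pair of the Dox replicate 1 peaks flanked the far site, from 56707550 to 56707742 with an estimated 11 reads and from 56709546 to 56709757 with 15 reads.

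No strong peak lay at the start of RAD51C. In Dox replicate 1 a peak from 56769589 to 56769852 fell in the gap between the genes and ended 111 bp before the RAD51C start, with 2.20-fold enrichment, an estimated 21 reads and a local background of 2.0 control reads. In PBS replicate 2 a peak from 56768782 to 56769221 ended 742 bp before it, just inside TEX14, with 2.32-fold enrichment and an estimated 12 reads. These peaks did not overlap, and Dox replicate 2 and PBS replicate 1 had no peak there. Past the RAD51C start 0 of the 20 peaks were found, and in TEX14 the 46.9 kb at the end away from RAD51C held none. A list shows only peaks above the caller's threshold, so weaker signal there is not visible. Outside the window the nearest peaks were weak as well, with folds of 2.03 to 3.44 in the 4 lists, and lay 14.0 kb or more below and 89.3 kb or more above it.

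The number of peaks in the window was 9 and 4 in Dox replicates 1 and 2, against 3 and 4 in PBS replicates 1 and 2 (means ± SD of 6.5 ± 3.54 for Dox and 3.5 ± 0.707 for PBS, with 2 libraries each; exact permutation p = 0.667, two-sided). Per 10000 peaks of the list it was 1.93 and 2.40 in Dox replicates 1 and 2, against 2.65 and 1.74 in PBS replicates 1 and 2 (difference -0.031, exact permutation p = 1.0). Peaks covered 5212 and 3891 bases of the window in Dox replicates 1 and 2, against 3266 and 4123 bases in PBS replicates 1 and 2 (exact permutation p = 0.667). The conditions overlapped in each of these counts. Windows of the same length, 198 kb, set end to end along the autosomes and X, held 3 or more sites found in all 4 libraries in 3.48% of the 9918 that held any peak, and 76.8% held 0 such sites. The window studied here was drawn around the far and middle sites, which are shared sites by that choice. These shares are therefore no test of its density.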

How the data were processed

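ChIP-seq for p53 in 293T cells gave 4 libraries, 2 per condition, and the 4 input samples were not analysed here. The submitters' processing notes name BWA, MACS2 and build hg19, without versions or filters. The authors deposited 1 peak list per library with no header, called separately at p under 0.05 per the peak names, with fold enrichment (a ratio), −log10 p, −log10 q and the summit. They also deposited 1 table per condition of matched pairs with −log10 p and, per the file headers, an IDR given as a fraction (a local IDR was not used). Depth is not given.

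Peaks sharing at least 1 bp were merged into sites. Summit heights were solved from fold and p, with the ChIP-to-control ratio estimated from their steps (3.75, 3.05, 5.37 and 2.77 in Dox replicates 1 and 2 and PBS replicates 1 and 2). A single solution was found for 89.3% to 99.1% of peaks per list. The step was tested on simulated lists made with the same formulas. A summit is the maximum of a region, PCR duplicates could not be checked, and repeated sequence, where reads may map to several copies, was not screened. Groups came from the sample titles, and Dox and PBS were compared with exact permutation tests over libraries. Sites were named if found in 2 or more libraries, and the strongest single-library peak was added. The members and lists were chosen with earlier results of these data known, and the near-site ratios after their values were seen. Planned lists of recombination and intercellular bridge genes were not analysed here, since their starts on hg19 were not at hand. Gene positions on hg19 are approximate and came with the definition of the region. Alternatives were a q limit, equal list length, the TEX14 body alone, other merging distances, each library left out and pairing by replicate number. Computation used Python 3.11.15 with scipy 1.17.1, numpy 2.4.6 and pandas 2.3.3, and plots used matplotlib 3.10.9.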

Additional observations from a re-analysis of the deposited data

Results flagged for a closer look

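In the Dox and PBS libraries of the same replicate number, opposite signs were seen for both of the following values, with 1 library per condition and number, so no test of that contrast was possible. Peaks in the window per 10000 peaks of the list differed, Dox minus PBS, by -0.725 within number 1 and by 0.663 within number 2. Bases of the window under peaks differed by 1946 within number 1 and by -232 within number 2. The list of Dox replicate 1 holds 46658 peaks and that of PBS replicate 1 holds 11304, and the part of list length in these values was not tested.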

How the results depend on the processing

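The 3 sites found in all 4 libraries remained 3 in number under each merging distance, at a q of at most about 0.05, at equal list length and with any library left out, and all 3 pairs of each condition had an IDR of at most 0.05. The near-to-far difference in height ratio was -1.23 to -1.18 and the near-to-middle difference -1.19 to -1.13 with each library left out. With fold in place of height they were -1.47 and -1.56, and with −log10 p -2.04 and -2.02. With the replicate numbers as pairs, the block left these differences at -1.20 and -1.16 (exact sign-flip p = 0.5, the smallest possible with 2 pairs); the others stayed at 3.0 peaks, -0.031 peaks per 10000, 857 bases and 0.09 log2 units, since pairing leaves a mean as it is. The numbers mark a passage, and 2 pairs are too few to check whether libraries of a number deviate together. The difference in peaks in the window, 3.0, was 0 at a q of at most about 0.05 and 0.5 to 5.5 with a library left out, 0.5 without Dox replicate 1, whose 6 weak peaks then drop out. Peaks per 10000, -0.031, became -35.4 at a q of at most about 0.05, where each list keeps 3 window peaks out of 289 to 1708, turned to 0.885 at equal list length and ran from -0.488 to 0.425 with a library left out. Bases under peaks ran from 196.5 (without Dox replicate 1) to 1517.5. The middle-to-far difference of 0.09 by fold turned to -0.018 by −log10 p and -0.044 by height, and ran from -0.64 to 0.81 with a library left out. The share of windows with 3 or more shared sites, 3.48% of the 9918 with any peak, was 0.484% at a q of at most about 0.05. At that limit only 1652 windows held a peak, so the 2 shares have different bases. Unless a construction is named, the cause was not tested. Depth is unknown, so where a list held no peak near RAD51C, this is only an absence above the caller's threshold.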
